A study of Mus musculus with 16 samples.

Results

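The step from multipotent progenitor to dendritic cell progenitor was read from the deposited list of genomic regions whose H3K27ac differed between multipotent progenitors (MPP) and common dendritic cell progenitors (CDP). All 59626 regions on chromosomes 1 to 19 were taken, of 60816 in that list and of 273958 in the 4 lists of the series, which also cover the classical (cDC) and the plasmacytoid (pDC) type of mature dendritic cell. Every region carries a signal for each of 2 MPP and 2 CDP libraries. The cells were sorted from C57BL/6 mice, with no allele or treatment named in the labels. Age, sex, and whether the libraries came from separate animals or cultures do not appear in the sources used here. The spread between the 2 libraries of a group may therefore be technical. The p-values rest on such spread alone, pooled in large part over regions of like signal. The terms first-listed and second-listed library follow the order in which the list gives the values. The signals are scaled whole numbers, not read counts, so the read depth is unknown. The antibody field of the labels names abcam as supplier, while their protocol text names Santa Cruz Biotechnology.

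H3K27ac is an acetylation of histone H3 found at active promoters and enhancers. MPP have left the stem cell pool but can still form every blood lineage, granulocytes and monocytes included. CDP are narrowed to the dendritic lineage and give rise to cDC, which present antigen to T cells, and to pDC, which secrete type I interferon. Progenitor genes code for such proteins as the receptor KIT and the transcription factors GATA2 and MEIS1. Granulocyte genes include the proteases of azurophil granules, and dendritic cell genes include MHC class II and the factors IRF8 and ID2. In bulk cells, fewer cells with a mark and less of the mark per cell cannot be told apart.

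A region is called separate here when both libraries of a group lie above both of the other. Its size is the ratio of the group means, each plus a pseudocount of 1. The list was made by calling regions that differ between these same libraries, so every count is a description of called regions. The p-values of limma weigh size against library spread, shared over regions of like signal, and are not independent evidence. How small they are depends on the settings, as given at the end. The smallest p that an exact permutation test could give with 2 and 2 libraries is 0.333. A gene's locus is its body with 10 kb on each side, and its signal is the sum over the called regions centred there. The gene positions are approximate mm9 positions written by hand without an mm9 annotation, so a region is assigned to a gene only by approximate nearness, and a locus can hold regions of neighbouring genes. A gene without a called region is not in the list, which does not show equal signal.

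Of the promoters of the loci described below, 5 are shown for a letter pattern shared within a group of genes higher in the same cells. They are the 250 bases before the gene start, from RefSeq (GRCm38.p6, another build than the mm9 of the regions), 5′ to 3′ on the gene's strand. The first 3 belong to neutrophil granule genes higher in MPP, and their capitals mark GAGGAAGT, a pattern of the kind bound by the ETS factor PU.1. The other 2 belong to MHC class II genes higher in CDP, and their capitals mark CTGATTGG, the form of the CCAAT element called the Y box. 
Mpo, chr11:87793534-87793783, plus strand: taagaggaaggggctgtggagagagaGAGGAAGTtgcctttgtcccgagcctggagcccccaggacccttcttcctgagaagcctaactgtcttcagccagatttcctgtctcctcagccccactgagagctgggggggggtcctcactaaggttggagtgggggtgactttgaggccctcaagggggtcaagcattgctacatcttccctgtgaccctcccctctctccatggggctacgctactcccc
Elane, chr10:79886062-79886311, plus strand: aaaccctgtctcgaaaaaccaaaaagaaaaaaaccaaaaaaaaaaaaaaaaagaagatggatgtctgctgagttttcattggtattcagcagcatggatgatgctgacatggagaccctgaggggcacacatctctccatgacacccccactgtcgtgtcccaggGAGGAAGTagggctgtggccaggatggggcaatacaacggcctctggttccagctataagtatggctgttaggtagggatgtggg
Prtn3, chr10:79879417-79879666, plus strand: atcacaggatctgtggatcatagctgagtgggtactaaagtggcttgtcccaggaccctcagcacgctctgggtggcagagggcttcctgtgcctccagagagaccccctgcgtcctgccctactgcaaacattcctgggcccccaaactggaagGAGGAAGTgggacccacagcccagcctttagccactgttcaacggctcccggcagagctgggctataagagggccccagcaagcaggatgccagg
H2-Aa, chr17:34287824-34288073, minus strand: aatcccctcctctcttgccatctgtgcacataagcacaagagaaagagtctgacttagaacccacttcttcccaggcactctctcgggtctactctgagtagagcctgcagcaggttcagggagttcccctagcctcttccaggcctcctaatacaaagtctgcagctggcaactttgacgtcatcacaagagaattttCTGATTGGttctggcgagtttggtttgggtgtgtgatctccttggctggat
H2-Eb1, chr17:34305617-34305866, plus strand: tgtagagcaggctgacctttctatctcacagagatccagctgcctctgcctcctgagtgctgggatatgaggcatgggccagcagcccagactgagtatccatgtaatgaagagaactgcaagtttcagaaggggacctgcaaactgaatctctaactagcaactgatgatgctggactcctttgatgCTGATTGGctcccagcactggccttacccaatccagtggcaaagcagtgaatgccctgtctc
GAGGAAGT, searched on both strands, was in 2.44% of 32851 promoter windows of this length, and in 5 of 21 granulocyte genes with a window, 1 of 21 progenitor genes and 3 of 29 dendritic cell genes. CTGATTGG was in 3.83% of windows, and in 3 of 29 dendritic cell genes, 2 of 21 progenitor genes and 0 of 21 granulocyte genes. In these windows the pattern starts 224 bases before the gene start in Mpo, 85 in Elane, 95 in Prtn3, 51 in H2-Aa and 62 in H2-Eb1. In all, 13 patterns were searched and the 5 promoters were chosen because they matched, with the hits in view. The other patterns were the ETS core GGAAGT (in 19.7% of windows), CCAAT (33.8%), a shifted Y box ATTGGTT (3.67%), a longer Y box (2.02%), the X box of class II promoters in a looser (1.00%) and a stricter form (0.259%), the C/EBP type TTGCNNAA (9.56%), the MYB type AACGG (14.5%), the E box AACAGATG (0.898%), and the GATA forms GATAA (22.6%) and AGATAA (9.99%). Several overlap, since GAGGAAGT holds GGAAGT, the longer Y box holds the shorter, and AGATAA holds GATAA. A match in letters is no evidence of binding.

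Losses and gains of acetylation from MPP to CDP were of similar extent and size. Both MPP libraries lay above both CDP libraries in 19301 regions, 32.4% of the list, and both CDP libraries lay above in 15991 regions, 26.8%. In the other 24334 regions the libraries overlapped. The median size was 1.83-fold for separate regions higher in MPP and 1.78-fold for those higher in CDP. A difference of at least 2-fold with separate libraries favoured MPP in 8383 regions (14.1%) and CDP in 6474 (10.9%), covering 7.15 Mb and 6.07 Mb. At least 8-fold differences numbered 808 and 496. By limma with Benjamini-Hochberg adjustment over all 59626 regions, 6888 regions fell from MPP to CDP (11.6%) and 5290 rose (8.87%), at an adjusted p under 0.05. Of these, 22 had overlapping libraries. A further 23136 separate regions did not pass.

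The balance depended on the scaling of the libraries. Summed over the autosomal regions, the signals were 50832667 and 39891251 in MPP and 38077720 and 44452730 in CDP. The median SD between libraries on the log2 scale was 0.28 in MPP and 0.26 in CDP. The median over all regions of log2 CDP over MPP was -0.12 as deposited and 0.017 with the 4 totals made equal. With equal totals limma called 6595 regions lower and 7228 higher in CDP, and 18229 and 21471 regions were separate.

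**Figure D1:**
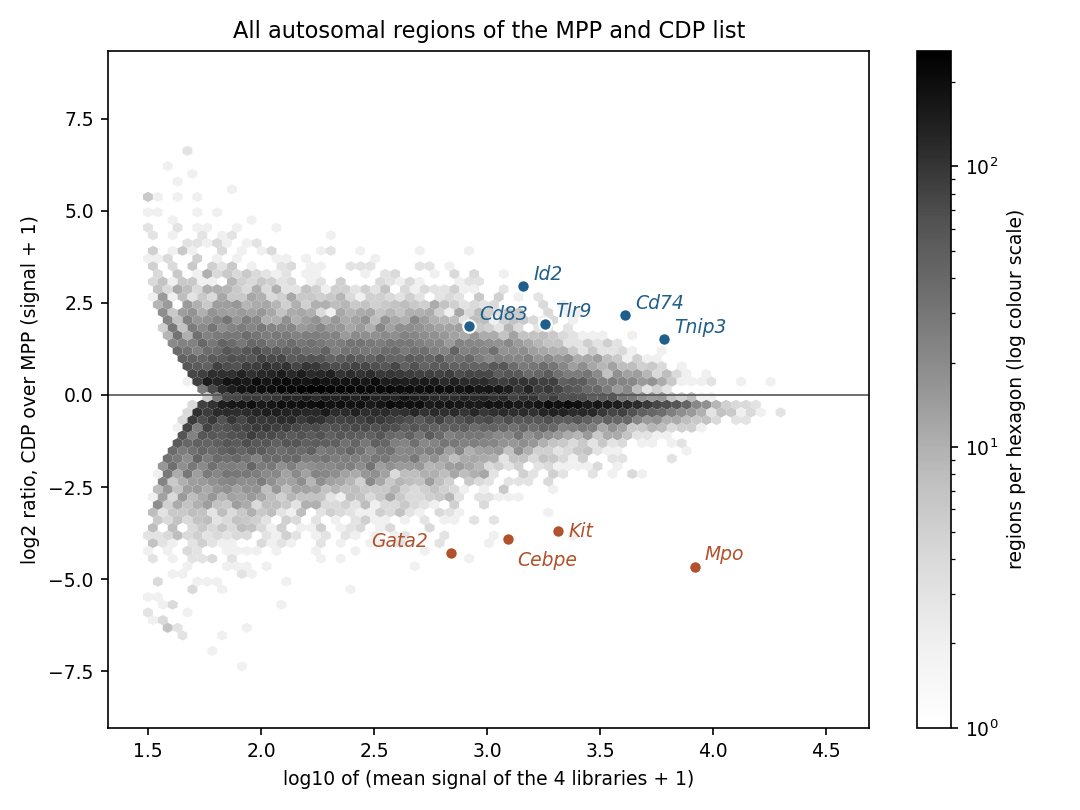
Each hexagon counts autosomal regions by mean signal of the 4 libraries (horizontal, log10) and log2 ratio of CDP over MPP (vertical), and the coloured points are the strongest limma-called region at 9 loci. The points for Mpo, Gata2, Cebpe and Kit lie below the grey cloud of regions of like signal, and Id2 and Cd74 lie at its upper edge.

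Longer regions were more often separate in both directions. Among regions under 500 bp, 23.9% were separate and higher in MPP and 22.6% higher in CDP. In regions of at least 1000 and under 2000 bp these shares were 42.4% and 31.5%. The share that was also at least 2-fold was 13.2% and 15.2% for MPP in these classes and 9.95% and 13.1% for CDP. In the 126 regions of at least 5000 bp it was 20.6% and 19.8%. By chromosome, this share ran from 12.3% on chromosomes 1 and 7 to 18% on chromosome 12 for MPP, and from 8.86% on chromosome 19 to 13.2% on chromosome 1 for CDP. Length classes and chromosomes were looked at after the data had been seen.

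Of 128 genes in 6 lists of blood cell genes, 121 were placed on the genome, each on the chromosome that RefSeq gives it. As a background for sums over several regions, the autosomes were divided into 30 kb bins, a measure added after the data had been seen. Among the 19634 bins with a called region, the summed signals were separate and higher in MPP in 39.2% and higher in CDP in 23.1%, with a median log2 ratio of -0.21. With a ratio of at least 1.5 as well, these shares were 27.2% and 16.9%. The markers listed for each cell type had the direction of the labels. They were chosen with earlier results of these data known, so they are no independent check of the labels. All 6 MPP markers (Kit, Cd34, Hoxa9, Meis1, Gata2 and Myb) were separate and higher in MPP, with log2 ratios from -4.39 to -0.59. All 5 CDP markers (Flt3, Csf1r, Irf8, Id2 and Cx3cr1) were separate and higher in CDP, with log2 ratios from 0.42 to 2.58. With 50 kb in place of 10 kb on each side, Flt3 had a log2 ratio of -0.15 and the libraries of Irf8 and Csf1r overlapped. Id2 and Cx3cr1 then had log2 ratios of 2.01 and 0.65.

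Stem and progenitor loci carried more H3K27ac in MPP. Of 26 placed genes, 25 had called regions, and 15 were separate and higher in MPP, against 1 in CDP and 9 that overlapped. The median log2 ratio of the 25 was -0.62. Of their 351 regions, limma called 17.4% lower in CDP, above the 11.6% of the whole list, and 3.70% higher, against 8.87%. The counts describe the lists and are not tested.

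Gata2, a zinc finger factor of stem cells, progenitors and mast cells, had summed signals of 3823 and 3534 in the MPP libraries versus 256 and 93 in CDP. This 21.0-fold difference was the largest of the 88 progenitor, granulocyte and dendritic cell loci with called regions. It was spread over 4 regions between 88143651 and 88154150 on chromosome 6 (mm9), each at least 19.4-fold higher in MPP and each passing limma, with adjusted p from 4.6e-08 to 1.8e-06. Kit, the receptor for stem cell factor, had 5084 and 3595 in MPP versus 235 and 382 in CDP, a 14-fold difference. Its 2 regions, from 75970601 to 75975200 on chromosome 5, were 12.9-fold and 37.1-fold higher in MPP, with adjusted p of 3.2e-08 and 1.2e-06 by limma. At neither locus did a CDP library come near an MPP library. Without the first-listed CDP library the log2 ratio of Gata2 went from -4.39 to -5.29.

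Further regulators of stem cells followed. Mecom, which codes for the zinc finger factor EVI1, had 6624 and 5223 in MPP versus 675 and 692 in CDP, an 8.66-fold difference. Most of it lay in a region from 30404701 to 30408700 on chromosome 3, which was 13.4-fold higher in MPP by limma with an adjusted p of 1.5e-08, while a short region of 400 bp within the gene had more signal in CDP, with libraries separate but an adjusted p of 0.13 by limma. Hlf, a leucine zipper factor of stem cells, had a single region with 2982 and 2713 in MPP versus 381 and 338 in CDP, a 7.90-fold difference. Tal1, a basic helix-loop-helix factor of stem and erythroid cells, had 14286 and 11086 against 3126 and 3704, which is 3.71-fold higher in MPP. All 4 regions of Tal1 passed limma, with folds from 2.34 to 6.26. The homeobox gene Nkx2-3 had 2233 and 2529 in MPP versus 542 and 748 in CDP, a 3.69-fold difference.

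At the other progenitor loci that were separate and higher in MPP, the ratio did not exceed 2.01-fold. Hmga2, a chromatin protein of fetal and self-renewing cells, had 3872 and 2559 in MPP versus 1513 and 1682 in CDP. Myb, a factor that progenitors need to proliferate, had 12982 and 9586 against 4855 and 6941, or 1.91-fold, with 9 of 10 regions separate and higher in MPP. Cd34, a surface sialomucin of progenitors, had 3181 and 3288 against 1580 and 1873, or 1.87-fold. For the HOX genes the ratio was 1.81-fold at Hoxa10 (14464 and 11854 in MPP versus 6502 and 8044 in CDP) and 1.51-fold at Hoxa9 (18719 and 15394 against 9954 and 12693), and their windows share regions. In the gene body alone the log2 ratio of Hoxa10 was -2.42. Meis1, a partner of HOX proteins, had 17192 and 13965 against 7744 and 10861, a 1.67-fold difference. Within Meis1 the regions differed widely. The region from 18771351 to 18772200 on chromosome 11 had 464 and 355 in MPP versus 0 and 23 in CDP, whereas the strongest, from 18914851 to 18921100, had 8878 and 5965 against 4158 and 6269 and so overlapped. In all, 12 of 20 Meis1 regions were separate and higher in MPP and 2 higher in CDP. Lyl1, a relative of Tal1, had 51587 and 43328 against 22883 and 31851, or 1.73-fold, in a window that RefSeq order shows to border Trmt1 and Nfix. Of the 12 regions in that window, 3 were separate and higher in MPP, 2 higher in CDP and 7 overlapped, and limma called 1 in each direction. Sox4, an HMG box factor, had 16260 and 11451 against 6876 and 11172, or 1.54-fold, with the higher CDP library close below the lower MPP library, and its libraries overlapped in the gene body alone.

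Mn1, a transcriptional coregulator, was the 1 locus of its list that was separate and higher in CDP. It had 949 and 594 in MPP versus 1580 and 2174 in CDP, a 2.43-fold difference, and 3 of its 5 regions passed limma as higher in CDP. Gfi1b was separate and higher in MPP by 1.36-fold. Among the loci with overlapping libraries were Lmo2, Cdk6, Etv6, Fli1, Egr1, Ikzf1, Runx1 and Procr, with log2 ratios from -0.46 at Procr to 0.04 at Runx1. Prom1 had no called region.

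In the granulocyte and monocyte list, the granule genes Mpo, Elane, Prtn3 and Ctsg had more H3K27ac in MPP. So did the factors Cebpa, Cebpe and Gfi1, while Csf1r, Klf4, Itgam and Cd14 had more in CDP. Of 28 placed genes, 25 had called regions, of which 15 were separate and higher in MPP, 4 higher in CDP and 6 overlapped, and the median log2 ratio was -0.57. Of their 110 regions, limma called 25.5% lower in CDP, above the 11.6% of the whole list, and 8.18% higher, near its 8.87%. Without called regions were Ngp, S100a8 and S100a9, genes of maturing neutrophils.

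Mpo codes for myeloperoxidase, the peroxidase of azurophil granules. Its locus had 22220 and 16745 in MPP versus 839 and 1165 in CDP, a 19.4-fold difference, and all 5 regions passed limma. The strongest, from 87605651 to 87614500 on chromosome 11, had 18526 and 13369 in MPP versus 530 and 727 in CDP, or 25.3-fold, with an adjusted p of 2.8e-09 by limma. Ctsg, the protease cathepsin G, had 15028 and 12826 against 2211 and 2523, a 5.88-fold difference over 4 regions that all passed limma. The neighbouring genes Elane, neutrophil elastase, and Prtn3, proteinase 3, share called regions on chromosome 10. Elane had 11723 and 9616 in MPP versus 2689 and 4010 in CDP, or 3.18-fold, and Prtn3 had 15725 and 12538 against 3787 and 5755, or 2.96-fold. With Mpo, these genes have the promoters printed with GAGGAAGT. With 50 kb on each side, which brings in regions of neighbouring genes, both MPP libraries stayed above both CDP libraries but the log2 ratios shrank, from -4.28 to -0.66 at Mpo, from -1.67 to -0.82 at Elane and from -1.57 to -0.82 at Prtn3.

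Several other granule and progenitor products showed the same direction. Camp, the antimicrobial peptide cathelicidin, had a single short region with 115 and 119 in MPP versus 15 and 48 in CDP, a 3.63-fold difference on low signals. Its log2 ratio of -1.86 became -0.42 with 50 kb on each side, -1.27 when the first-listed CDP library was left out, and -2.88 when the second-listed was. Ms4a3, a membrane protein of granulocyte and monocyte progenitors, had 3836 and 3213 against 1358 and 1591, or 2.39-fold. The serine protease gene Prss57 had 4422 and 4068 against 1706 and 2253, or 2.14-fold. Its log2 ratio was -2.30 in the gene body alone and -0.67 with 50 kb on each side. Of its 4 regions, 3 were separate and higher in MPP and 1 higher in CDP, and limma called 1 in each direction. Fcnb, a soluble lectin, had 825 and 848 against 258 and 726, or 1.70-fold, with its CDP libraries far apart. With equal totals the libraries of Fcnb overlapped, and without the second-listed CDP library its log2 ratio was -1.69. F13a1, subunit A of coagulation factor XIII, had 1936 and 1765 against 938 and 1415, or 1.57-fold, with 5 regions separate and higher in MPP and 2 higher in CDP.

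Among the transcription factors, Cebpe, needed for late neutrophil maturation, had 3211 and 4045 in MPP versus 415 and 632 in CDP, a 6.92-fold difference, and its 3 regions passed limma. With 50 kb on each side its log2 ratio went from -2.79 to -0.71. The region from 55324201 to 55326600 on chromosome 14 was 14.9-fold higher in MPP, with an adjusted p of 1.5e-08 by limma. Gfi1, a repressor that directs progenitors to granulocytes, had 8113 and 6210 against 1831 and 2057, a 3.68-fold difference. Its 2 regions went opposite ways: that from 108151901 to 108156450 on chromosome 5 was 4.23-fold higher in MPP, and a short one from 108137101 to 108137700 was 2.28-fold higher in CDP, with adjusted p of 3.1e-05 and 0.027 by limma. Cebpa, the factor that starts the granulocyte and monocyte program, had 7836 and 6398 against 2995 and 3283, or 2.27-fold.

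Receptor and monocyte genes were divided. Csf1r, the receptor for macrophage colony-stimulating factor and a surface marker of CDP, had 3669 and 3248 in MPP versus 4801 and 6787 in CDP, a 1.68-fold difference, and 6 of its 8 regions were separate and higher in CDP, 2 of them passing limma, but its libraries overlapped with 50 kb on each side. Klf4, a factor of monocytes, had 1389 and 1272 against 2470 and 2344, or 1.81-fold higher in CDP. Itgam and Cd14 were separate and higher in CDP by 1.35-fold and 1.23-fold, and Cd14 overlapped with 50 kb on each side or with the gene body alone. Igsf6, Csf2rb and Lyz2 were separate and higher in MPP by 1.35-fold to 1.49-fold. Csf3r, Csf2ra, Cebpd, Hp, Ly6c2 and the granule gene Ltf had overlapping libraries.

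**Figure D2:**
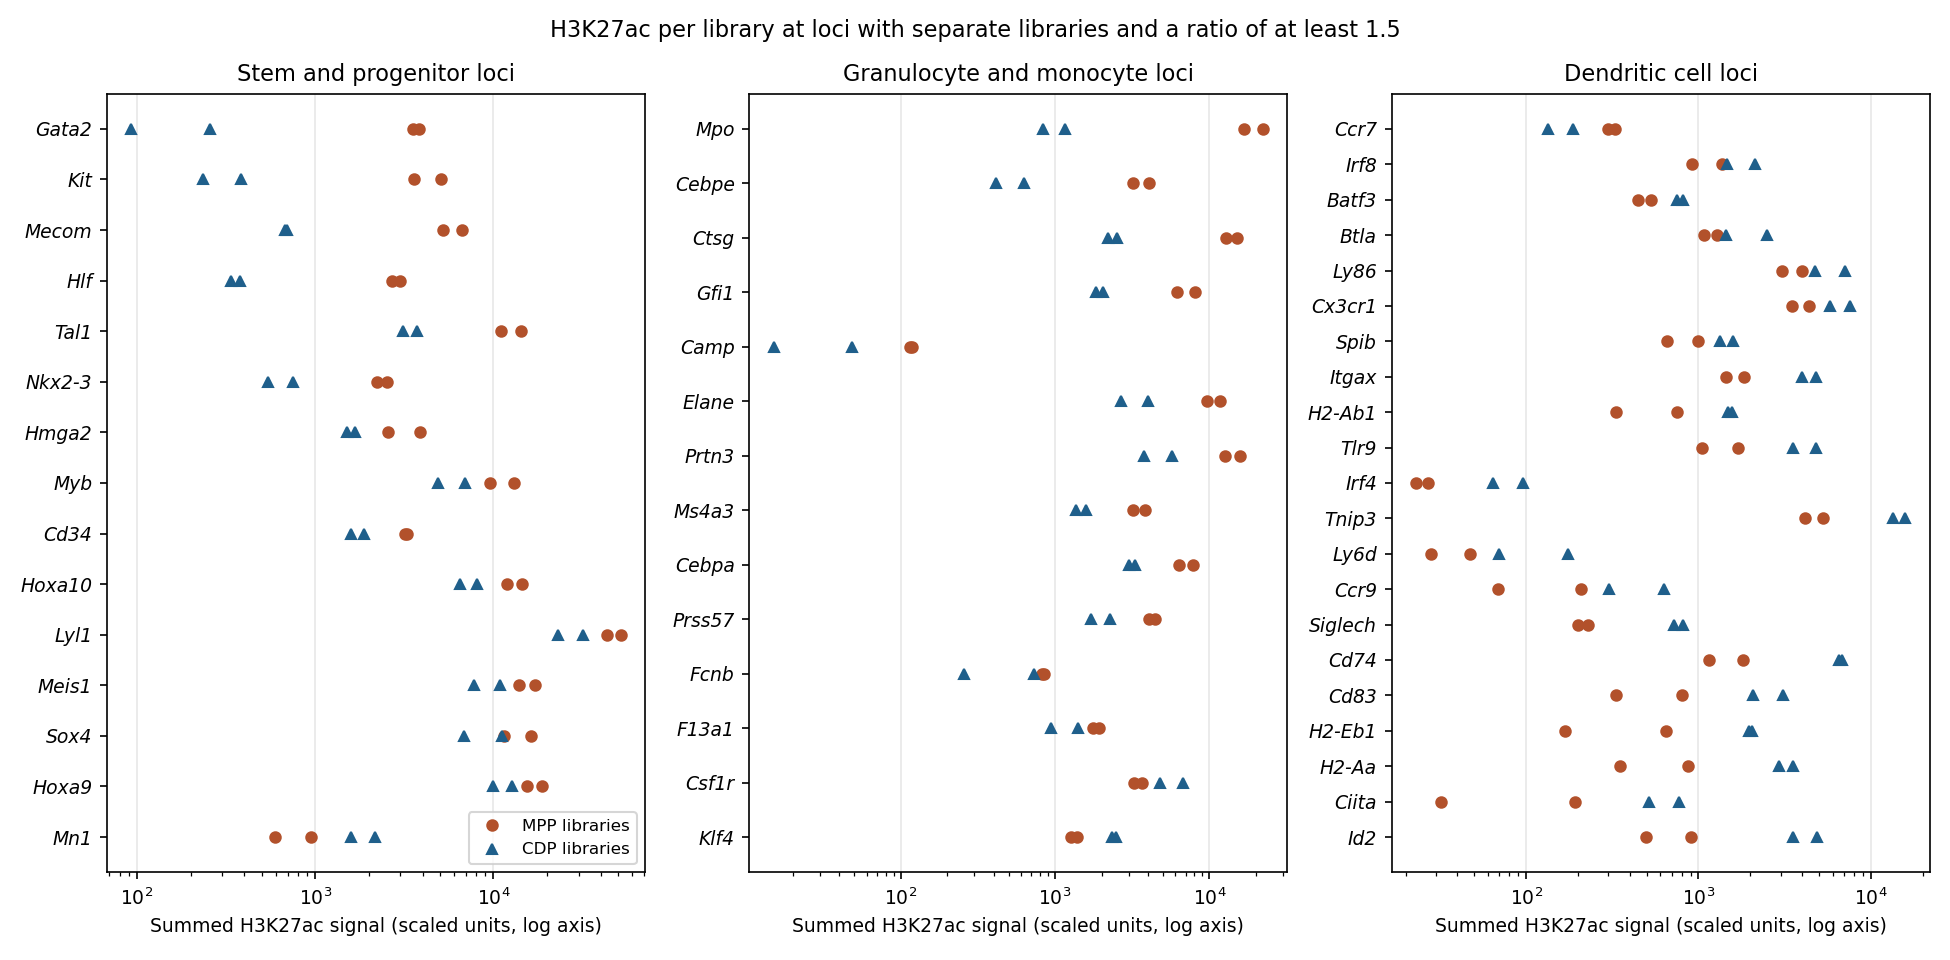
Summed H3K27ac signal in each library (log axis, scaled units) at the 50 progenitor, granulocyte and dendritic cell loci whose libraries are separate with a ratio of at least 1.5, with 2 MPP and 2 CDP points per locus. The CDP points lie left of the MPP points at 14 of 15 progenitor loci and 12 of 14 granulocyte loci, and right of them at 20 of 21 dendritic cell loci.

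Dendritic cell loci showed the opposite balance. Of 39 placed genes, 38 had called regions, and 26 were separate and higher in CDP, against 3 in MPP and 9 that overlapped. The median log2 ratio was 0.66, beside -0.21 for the bins. Of their 283 regions, limma called 21.2% higher in CDP, against 8.87% of the whole list, and 5.30% lower, against 11.6%. With 50 kb in place of 10 kb on each side, 17 were separate and higher in CDP and 5 in MPP.

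Id2, an inhibitor of helix-loop-helix factors needed for cDC, had 909 and 497 in MPP versus 3526 and 4881 in CDP. This 5.97-fold difference was the largest of the list. It lay in 2 regions from 25779401 to 25786300 on chromosome 12 that were 4.41-fold and 7.71-fold higher in CDP, with adjusted p of 3.4e-05 and 7.5e-07 by limma. Genes of antigen presentation came next. Ciita, the coactivator that switches on MHC class II genes, had 192 and 32 in MPP versus 513 and 766 in CDP, or 5.67-fold, and all 3 of its regions passed limma. The MPP libraries lie far apart here, and the higher of them still lay below both CDP libraries. The log2 ratio of Ciita was 2.50, and it was 1.73 without the second-listed MPP library, 4.28 without the first, 3.50 in the gene body alone and 0.73 with 50 kb on each side.

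The class II chain genes themselves were higher in CDP. H2-Aa, the alpha chain of I-A, had 873 and 352 in MPP versus 3511 and 2912 in CDP, a 5.24-fold difference over 4 regions that all passed limma. H2-Eb1, the beta chain of I-E, had 651 and 168 against 1961 and 2031, or 4.86-fold, and H2-Ab1, the beta chain of I-A, had 753 and 333 against 1569 and 1476, or 2.80-fold. The 3 windows share regions, and within the gene body alone the log2 ratio of H2-Ab1 was -0.37. Cd74, the invariant chain that escorts class II molecules, had a single region of 5.8 kb holding 1816 and 1147 in MPP versus 6523 and 6775 in CDP, a 4.49-fold difference with an adjusted p of 1.9e-05 by limma. With 50 kb on each side the log2 ratios went from 2.39 to 1.68 at H2-Aa, from 2.28 to 1.55 at H2-Eb1 and from 2.17 to 0.45 at Cd74, with libraries still separate. H2-DMb2, a chain of the peptide editor, was separate and higher in CDP by 1.32-fold but had a log2 ratio of -0.12 with 50 kb on each side, while H2-DMa overlapped. At H2-Aa, H2-Eb1, H2-Ab1 and Ciita alike, the second-listed MPP library was the lowest of the 4. Without the first-listed MPP library the log2 ratios were 3.19 at H2-Aa, 3.56 at H2-Eb1 and 2.19 at H2-Ab1, and without the second-listed it was 1.61 at H2-Eb1.

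Of the surface and signalling genes of dendritic cells, Cd83, a maturation marker, had 806 and 332 in MPP versus 3095 and 2065 in CDP, or 4.53-fold. Its region from 43884001 to 43886250 on chromosome 13 was 11-fold higher in CDP, with an adjusted p of 4.8e-06 by limma. The log2 ratio of the locus was 2.18, against 2.95 without the first-listed MPP library and 2.96 in the gene body alone. Tnip3, an inhibitor of NF-kappa-B signalling, had 5256 and 4132 against 15827 and 13520, or 3.13-fold, and all 5 of its regions were separate and higher in CDP. Itgax, the integrin chain CD11c, had 1839 and 1452 against 4793 and 4009, or 2.67-fold, with 3 of 4 regions passing limma. The chemokine receptor gene Cx3cr1 had 4395 and 3507 against 5802 and 7580, or 1.69-fold, and 7 of its 9 regions were separate and higher in CDP. Ly86, the partner of the receptor RP105, had 4001 and 3060 against 4737 and 7032, or 1.67-fold, and Btla, an inhibitory receptor, had 1282 and 1083 against 1444 and 2486, or 1.66-fold. In both the lower CDP library lay close above the higher MPP library, and Ly86 overlapped with 50 kb on each side.

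Several genes of pDC were higher in CDP than in MPP, some on low signals, while Runx2 was separate and higher in MPP and Bcl11a, Cbfa2t3, Irf7 and Bst2 overlapped. Siglech, a surface receptor of pDC, had 228 and 201 in MPP versus 722 and 808 in CDP, a 3.55-fold difference, and both its regions passed limma. Ccr9, a chemokine receptor of pDC, had 208 and 69 against 301 and 627, or 3.33-fold. Ly6d, a surface antigen of pDC-biased and lymphoid progenitors, had 47 and 28 against 70 and 174, or 3.19-fold, in a single region that did not pass limma, and with 50 kb on each side its log2 ratio was -1.34. Tlr9, the receptor for unmethylated DNA, had 1700 and 1045 against 3543 and 4792, or 3.03-fold, in a window that RefSeq order places between Twf2 and Alas1. Spib, an ETS factor of pDC, had 995 and 657 against 1330 and 1582, or 1.76-fold. With 50 kb on each side the libraries overlapped at Siglech, Ccr9, Tlr9 and Spib, with log2 ratios of 0.02, 0.22, 0.13 and 0.11. Leaving out a library moved the log2 ratio of Ccr9 between 1.11 without the second-listed CDP library and 2.73 without the first-listed MPP library, against 1.74, and it was 1.15 without the second-listed MPP library. That of Ly6d was 0.88 without the second-listed CDP library, against 1.68. Tcf4, the helix-loop-helix factor that sets pDC identity, was 1.31-fold higher in CDP over 30 regions, of which 16 were separate and higher in CDP and 5 higher in MPP.

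Of the factors of the DC lineage, Irf8, Batf3 and Irf4 were separate and higher in CDP, Nfil3 was separate and higher in MPP, and Spi1, Relb and Stat3 overlapped. Irf8, the factor that CDP depend on, had 1373 and 922 in MPP versus 1461 and 2124 in CDP, or 1.56-fold, and its libraries nearly touched. With 50 kb on each side they overlapped, with a log2 ratio of 0.11. Its strongest region, from 123259801 to 123261750 on chromosome 8, was 2.40-fold higher in CDP, with an adjusted p of 0.0086 by limma, and 2 weaker regions were separate and higher in MPP. Batf3, a factor of CD8-type cDC, had 532 and 446 against 818 and 751, or 1.6-fold. Irf4, a factor of CD11b-type cDC, had a single region of 250 bp with 27 and 23 against 64 and 96, or 3.12-fold, with an adjusted p of 0.12 by limma, and its libraries overlapped with 50 kb on each side. Flt3, the receptor whose ligand drives DC formation, was 1.34-fold higher in CDP, with 12 of 19 regions separate and higher in CDP, and its log2 ratio was -0.15 with 50 kb on each side. Sirpa, Xcr1 and Clec9a, surface markers of cDC, were separate and higher in CDP by 1.44-fold, 1.40-fold and 1.15-fold. Clec9a had a log2 ratio of -0.53 in the gene body alone.

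Ccr7, the receptor that guides mature DC to lymph nodes, was the 1 DC locus at least 1.5-fold higher in MPP. It had 327 and 297 in MPP versus 187 and 134 in CDP, or 1.94-fold, in 0.9 kb of called regions, and its log2 ratio was 0.50 with 50 kb on each side. Runx2 and Nfil3 were separate and higher in MPP by 1.40-fold and 1.27-fold. Nfil3 overlapped with equal totals and had a log2 ratio of 0.51 in the gene body alone. Spi1, which codes for PU.1, Bcl11a, Cbfa2t3, Relb, Irf7, Stat3, Bst2, Cst3 and H2-DMa had overlapping libraries, with log2 ratios from -0.28 at Stat3 to 0.18 at Spi1. At Spi1, the region from 90952651 to 90954100 on chromosome 2 was 2.37-fold higher in MPP, with an adjusted p of 0.0084 by limma. Cd8a had no called region.

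**Figure D3:**
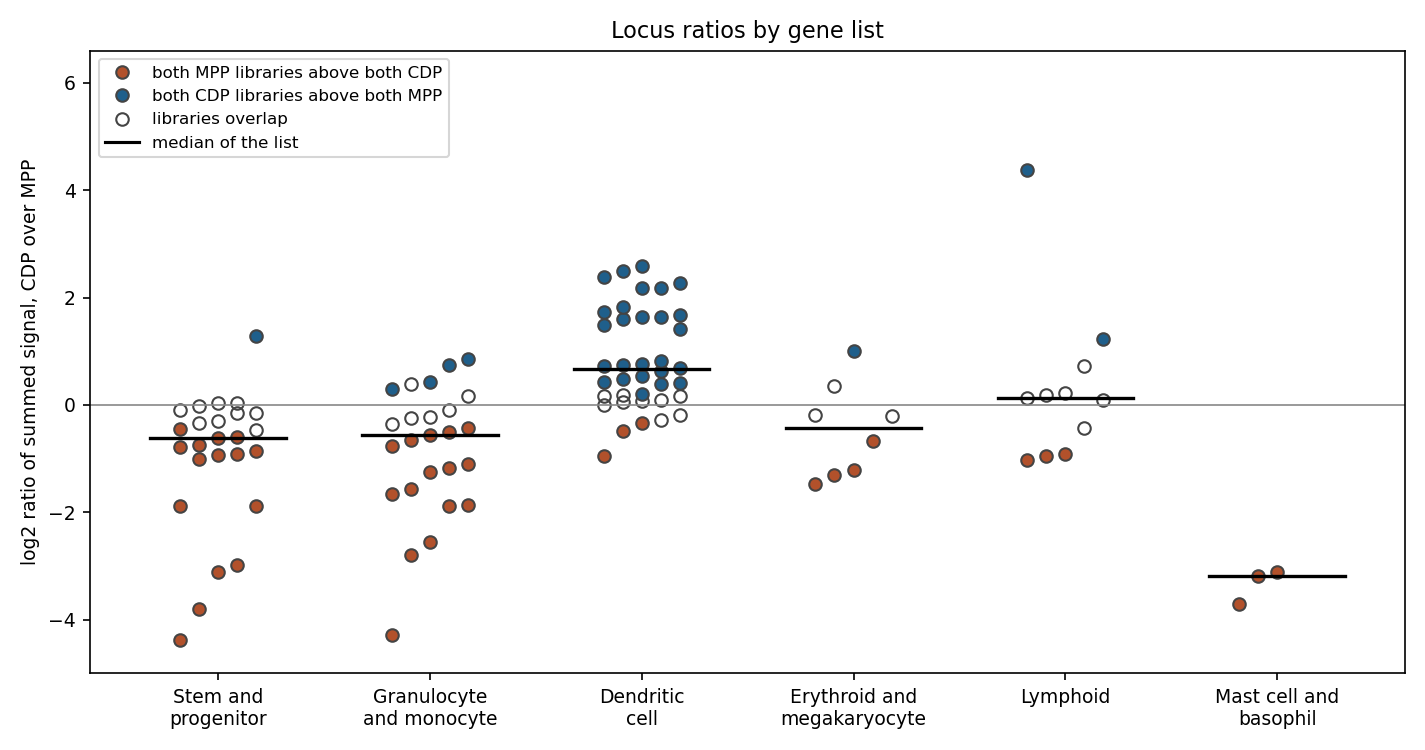
Each point is a locus with called regions, placed by the log2 ratio of its summed signal in CDP over MPP, in 6 gene lists. Filled points have separate libraries and bars are list medians, which lie at -0.62, -0.57, 0.66, -0.44, 0.13 and -3.19 from left to right.

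Markers of other blood cells differed between the groups as well. In the list for mast cells and basophils, 3 of 5 placed genes had called regions and all 3 were separate and higher in MPP, beside 39.2% of the 30 kb bins. Cpa3, a mast cell carboxypeptidase, had 390 and 275 in MPP versus 34 and 15 in CDP, or 13.1-fold. Ms4a2, the beta chain of the IgE receptor, had 530 and 813 against 107 and 38, or 9.15-fold, and Mcpt8, a basophil protease, had 1697 and 2437 against 259 and 218, or 8.63-fold. Their summed signal over the list was 2617 and 3525 in MPP versus 400 and 271 in CDP. Kit and Gata2 are also expressed by mast cells, and the Mcpt8 window shares regions with Ctsg. Prss34 and Gzmb had no called region. The part of such cells in the progenitor and granulocyte results was not tested.

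For erythroid cells and megakaryocytes, 8 of 10 placed genes had called regions, with 4 separate and higher in MPP, 1 in CDP and 3 overlapping. Among the 30 kb bins, 39.2% were separate and higher in MPP and 23.1% in CDP. Of the list's 31 regions, limma called 25.8% lower in CDP, against 11.6% of the whole list, and 0% higher, against 8.87%. Those higher in MPP were Pf4, a platelet chemokine, by 2.80-fold, Zfpm1, the GATA1 partner FOG1, by 2.46-fold, Itga2b, the platelet integrin chain CD41, by 2.32-fold, and Nfe2 by 1.59-fold. Klf1, Epor and Vwf overlapped, with log2 ratios of -0.19, -0.2 and 0.35. The globin gene Hba-a1 and the band 3 gene Slc4a1 had no called region, which does not show equal signal. The globin gene Hbb-b1 was the locus higher in CDP, with a single region of 83 and 100 in MPP versus 122 and 245 in CDP, or 1.99-fold. The list's summed signal was 36838 and 31271 in MPP versus 22786 and 24686 in CDP. The part of these cells in the results was not tested.

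Of 11 lymphoid loci with called regions, 3 were separate and higher in MPP, 2 in CDP and 6 overlapped. Among the 30 kb bins, 39.2% were separate and higher in MPP and 23.1% in CDP. Of the 36 lymphoid regions, limma called 13.9% lower and 11.1% higher in CDP, near the 11.6% and 8.87% of the whole list. Pax5, the factor of B cell commitment, had 34 and 0 in MPP versus 337 and 408 in CDP, or 20.8-fold, in 2 regions on chromosome 4 that both passed limma. That ratio is the largest at any of the 121 loci in favour of CDP, and the signals are low. Il7r was 2.34-fold higher in CDP, with low signals of 59 and 51 in MPP versus 115 and 145 in CDP. Its single region of 0.4 kb did not pass limma. Vpreb1 and Igll1, the surrogate light chain genes, share regions and were 1.90-fold and 2.03-fold higher in MPP, and Dntt was 1.93-fold higher in MPP in a single region of 200 bp. Cd3e and Ebf1 had no called region. The list's summed signal was 31448 and 24054 in MPP versus 18419 and 25333 in CDP.

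**Figure D4:**
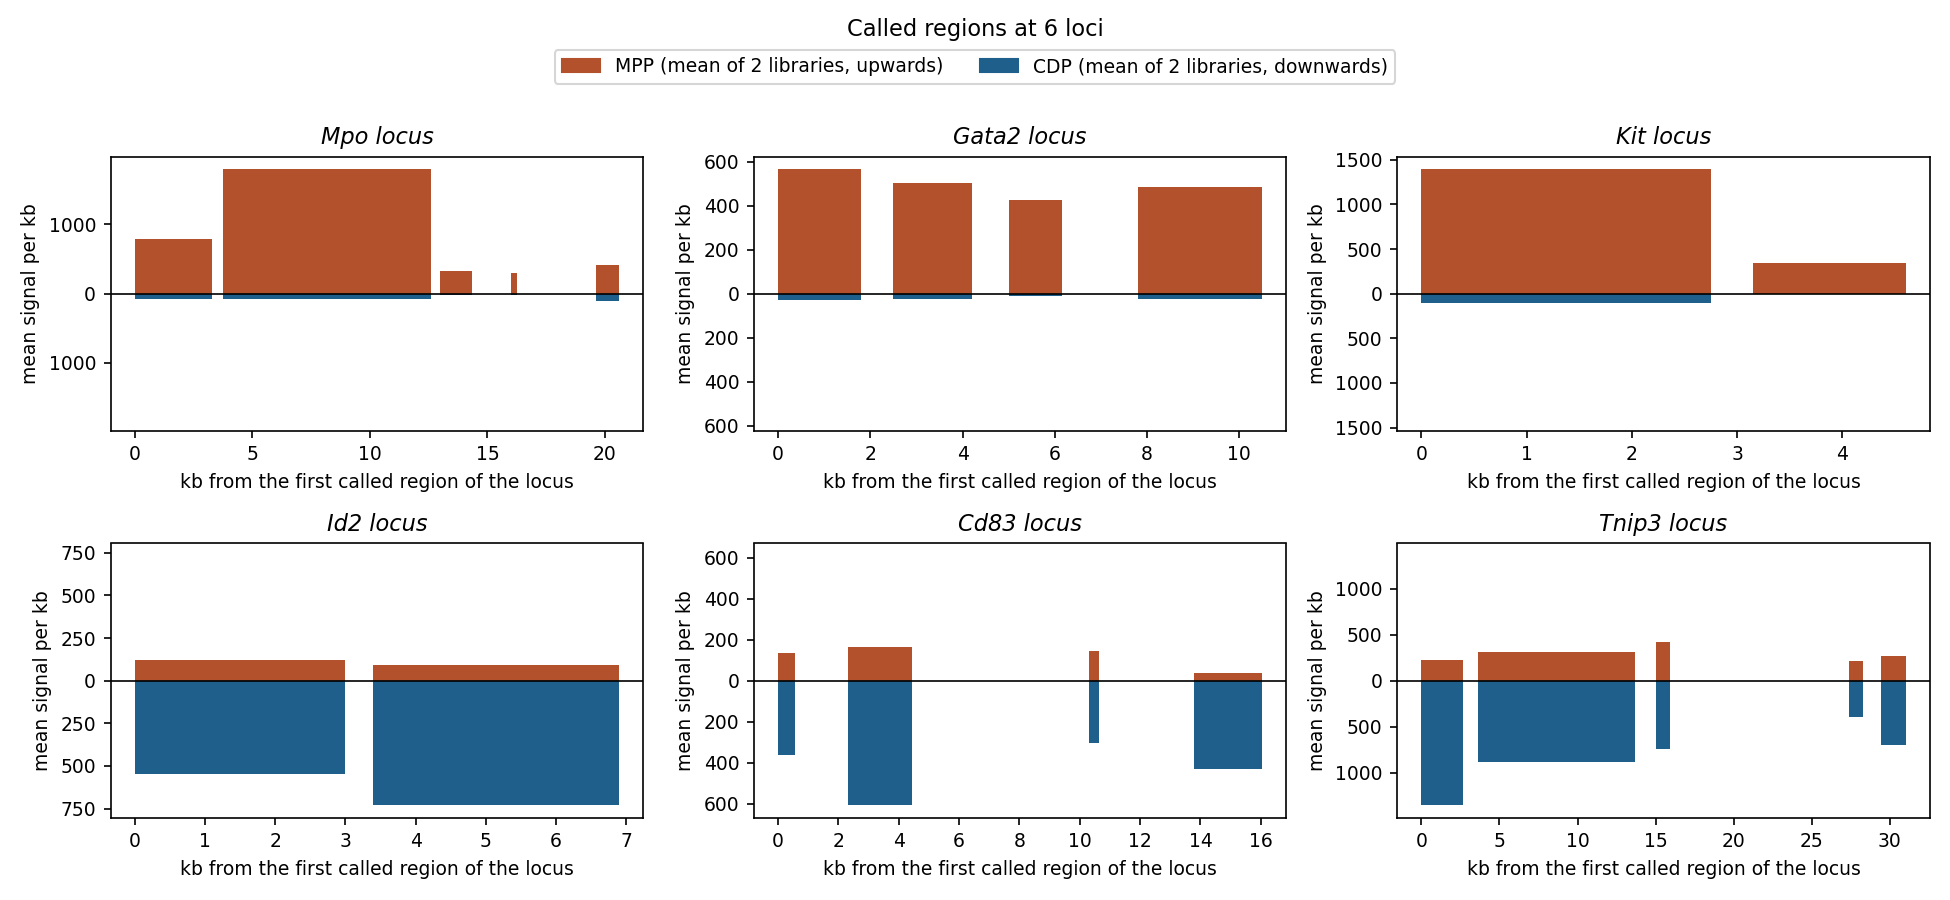
Called regions at 6 loci, with mean signal per kb in MPP drawn upwards and in CDP downwards against distance from the first called region. At Mpo, Gata2 and Kit the upward bars exceed the downward ones in every region, and at Id2, Cd83 and Tnip3 every region has more signal in CDP.

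Loci with many called regions held gains and losses side by side, as did the list as a whole. Of all its regions, 32.4% were separate and higher in MPP and 26.8% higher in CDP. By limma, 11.6% were lower and 8.87% higher in CDP. Whether these loci differ from the list was not tested. Etv6 had 103 regions, of which 35 were separate and higher in MPP while 25 were higher in CDP, with a summed log2 ratio of -0.15. Cdk6 had 55 regions, with 19 favouring MPP and 16 favouring CDP, and the same summed ratio. Runx1 had 35 regions, 15 and 6, and a summed log2 ratio of 0.04. These loci therefore overlapped as sums while limma called regions in each direction, 7 and 3 at Etv6, 4 and 3 at Cdk6, and 2 and 2 at Runx1. Runx2 leaned to MPP, with 20 regions higher there and 6 higher in CDP. Bcl11a, a zinc finger factor of pDC and B cells, had 9 regions separate and higher in CDP and 2 higher in MPP, yet a summed log2 ratio of -0.01.

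**Figure D5:**
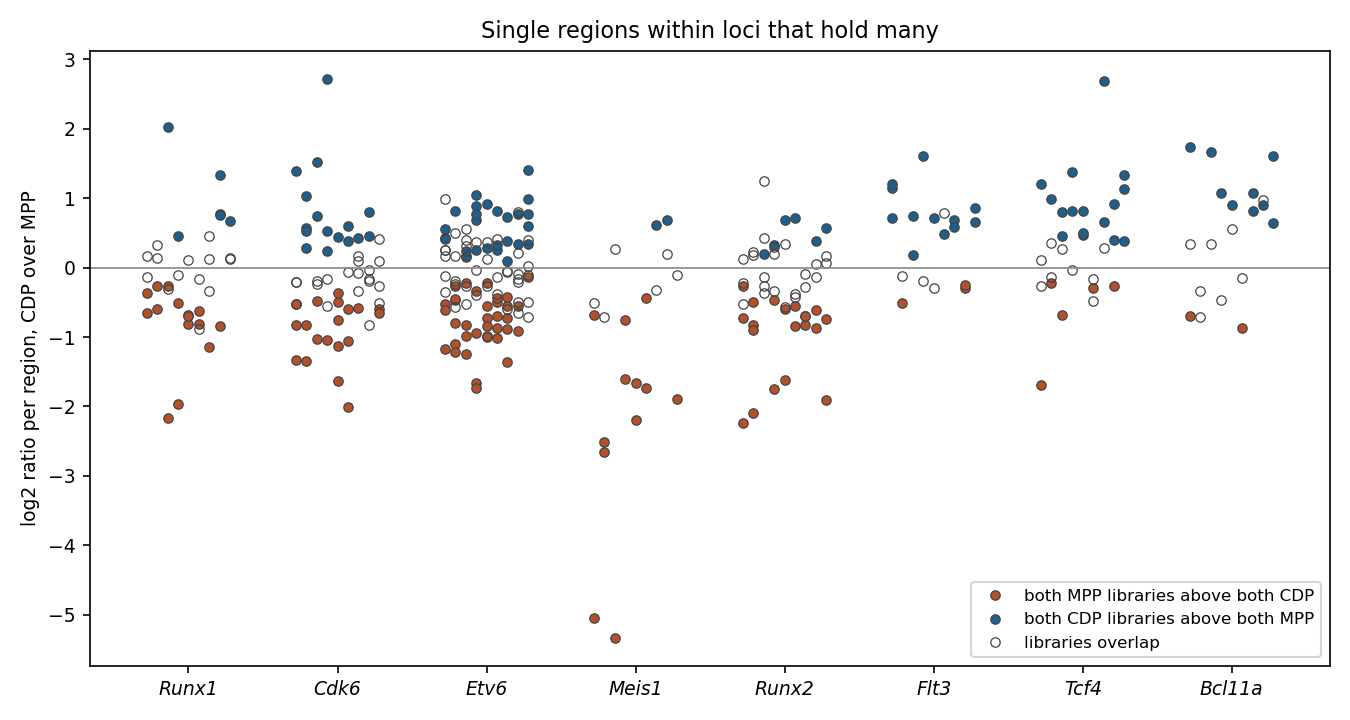
Log2 ratio of CDP over MPP for every called region at 8 loci with many regions, where filled points have separate libraries. Points lie on both sides of 0 at each locus, and Meis1 reaches below -5.

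Outside the listed genes, stretches were formed by joining regions of 1 direction less than 1 kb apart, and the 10 with the largest summed difference per direction were taken, so their size follows from the choice. In favour of MPP, chromosome 15 from 85496051 to 85504850 had 36591 and 25583 in MPP versus 11090 and 13206 in CDP, or 2.56-fold. Chromosome 12 from 86966951 to 86990100 held 15 regions with 14734 and 12054 against 3572 and 2847, or 4.17-fold. Of the 10, the stretches at Lyl1, Mpo, Ctsg, and Elane with Prtn3 fell in placed windows. In favour of CDP, the largest summed difference was on chromosome 13 from 23827851 to 23857400, with 54890 and 36412 in MPP and 45177 and 74157 in CDP, so that the libraries overlapped, as they did on chromosome 13 from 23624051 to 23650850. Chromosome 2 from 58007451 to 58014550 was a single region with 5493 and 5330 in MPP versus 12738 and 12965 in CDP, or 2.37-fold. Chromosome 12 from 87294701 to 87301850 had 4887 and 3893 against 12309 and 9358, or 2.47-fold, and chromosome 14 from 122327801 to 122339300 had 8183 and 6256 against 13591 and 14673, or 1.96-fold. Of the CDP stretches, the Tnip3 stretch alone fell in a placed window. Without joining, regions of 6 of the 10 MPP stretches and 4 of the 10 CDP stretches were among the 10 largest differences. Without gene positions, the others are given by coordinates (mm9).

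Among single regions with a mean of at least 100 in the higher group, those with the largest ratios were listed at or near 0 in the lower group. Chromosome 1 from 171612701 to 171613400 showed 295 and 293 in MPP, with a listed value of 0 in each CDP library. The region on chromosome 4 from 104744151 to 104744950 had 332 and 264 in MPP versus 0 and 2 in CDP. For CDP, the region on chromosome 15 from 52397301 to 52397850 had 1 and 1 in MPP versus 225 and 255 in CDP, and chromosome 2 from 25193401 to 25194050 had 5 and 1 against 268 and 275. Of these 20 regions, 1 lay in a placed window, that of Pax5 from 44684251 to 44684600 on chromosome 4, with 1 and 0 in MPP versus 93 and 157 in CDP. The list as a whole held 40 regions listed at 0 in both libraries of a group, 30 of them in CDP.

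The lists that follow CDP into the mature cells use the same CDP libraries, scaled anew, so their values are set beside the first step without a comparison. At Id2, 5.97-fold higher in CDP than MPP, cDC had 24792 and 26516 against 4683 and 6367 in CDP, whereas pDC had 4425 and 5324 against 3908 and 5344. At Siglech, 3.55-fold higher in CDP than MPP, pDC had 37249 and 40985 against 1540 and 2350 in CDP. At H2-Aa, cDC had 39518 and 57201 against 6062 and 4698 in CDP, and pDC had 6653 and 11487 against 4679 and 3570. At Irf8, pDC had 47758 and 44266 against 4280 and 6415 in CDP, and cDC had 15514 and 16634 against 4029 and 5707. Other loci higher in CDP than MPP had less signal in the mature cells. Csf1r had 2870 and 4734 in cDC versus 6631 and 9086 in CDP, and 1812 and 1950 in pDC versus 5498 and 7668. Cx3cr1 had 3698 and 5102 in cDC versus 7852 and 9779 in CDP, and 2443 and 2942 in pDC versus 6386 and 8029. Tnip3 had 1713 and 2228 in pDC versus 17497 and 14500 in CDP.

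Progenitor and granulocyte loci lower in CDP than MPP took different courses in these lists. Ctsg had 97 and 254 in cDC versus 2031 and 2378 in CDP, and 88 and 70 in pDC versus 1548 and 1911. Kit had 5565 and 7518 in cDC versus 869 and 1042 in CDP, and 1000 and 1339 in pDC versus 218 and 366. Mecom had 23 and 52 in cDC versus 380 and 223 in CDP, but 6840 and 7223 in pDC versus 458 and 447. Elane had 937 and 1451 in cDC versus 3099 and 4536 in CDP, but 13186 and 15518 in pDC versus 2828 and 4331. The window of Elane also reaches toward neighbouring genes, Prtn3 and Cfd by RefSeq order, and the called regions differ between lists. Of the 39 placed dendritic cell loci, 21 were separate and higher in cDC than CDP and 6 higher in CDP, where 23.9% and 38.2% of the 30 kb bins of that list were. Against pDC, 29 were higher in pDC and 9 in CDP, where 47.8% and 35.5% of bins were. Of the progenitor loci with called regions, 3 of 24 were separate and higher in cDC and 14 higher in CDP, and 8 of 23 were higher in pDC and 10 in CDP. For granulocyte loci, 5 of 23 were separate and higher in cDC and 8 in CDP, and 12 of 24 were higher in pDC and 9 in CDP. These granulocyte counts lay near the shares of bins given above, and none of the list counts was tested.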

How the data were processed

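Chromatin immunoprecipitation of H3K27ac was followed by sequencing in 2 MPP and 2 CDP libraries. Reads were aligned with BWA 0.6.1 to mm9, per the submitters' processing notes, and THOR, which calls differential peaks from replicates, stands in the title of the series. The authors' deposited list gives each region's bounds and 4 signals, other than read counts in unit, being whole numbers scaled within each list. The deposited p-values were not used. Which values are MPP and which CDP follows the list's name. In regions with identical bounds in another list with CDP, the log2 ratios of matching CDP values had an SD of at most 0.059 in 4 pairs, against at least 0.607 in the other 28. The input and the RNA samples were left out.

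limma 3.58.1 (R 4.3.3, lmFit, eBayes with trend) was run on log2(signal + 1) over all 59626 autosomal regions, called at a Benjamini-Hochberg adjusted p under 0.05. The variance prior that limma shares over regions had 22.35 degrees of freedom. Each p therefore rests mostly on shared spread, not on that of the region's own libraries. The limma fit was tested on simulated data. Sums, counts and plots were made in matplotlib 3.10.9, pandas 2.3.3 and numpy 2.4.6 under Python 3.11.15. The members and lists were chosen with earlier results of these data known.

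Gene windows are the weakest step. No mm9 annotation was used. Gene bodies were written by hand from general knowledge, to about 1 kb. Some were recalled as mm9 positions, and many were worked out from a recalled GRCm38 position and a remembered local shift between the builds, which is an informal conversion between builds. They were then compared with RefSeq GRCm38 for a smooth shift along each chromosome, and 7 of 128 genes were left out by that comparison or for doubt, before any locus signal was computed. All 121 placed genes are on the chromosome RefSeq gives, and 101 of 102 adjacent pairs are in its order. Because the placement itself was compared with RefSeq GRCm38, these counts are not an independent check of it. They cannot show whether a window is right in mm9 at the scale of a single gene. The pair out of order is not identified here. A misplaced window would give a gene the signal of its neighbours. Loci of the progenitor, granulocyte and dendritic cell lists with separate libraries and a ratio of at least 1.5 are given with values; others are counted or given where their role is described. Pseudocounts, scaling, length and signal filters, window size, window rule, joining and leaving out each library were the alternatives.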

Additional observations from a re-analysis of the deposited data

How the results depend on the processing

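No paired analysis was possible because the listed values carry no replicate number. Equal totals turned the median log2 ratio from -0.12 to 0.017, and with a library left out it ranged from -0.226 to 0.089, the highest without the first-listed MPP library, and was 0 without the first-listed CDP library. Keeping regions of at least 500 bp, which tests fewer regions, left 10202 separate regions higher in CDP and 5005 and 3925 at least 2-fold higher in MPP and CDP. The filter on a group mean of at least 50 removed no region, since the smallest is 53.5. Without an intensity trend limma called 3158 regions higher in CDP, and the cause was not tested. The smallest adjusted p of any region by limma was 9.84e-10 in the main fit. Among the fits on all 4 libraries it ranged from 3.6e-38 with a robust variance prior to 0.000807 without the trend. With equal totals it was 1.58e-05. How small the adjusted p-values given above are therefore depends on the setting. With a library left out, limma calls ranged from 2498 to 6411 lower in CDP and from 1985 to 4427 higher, and separate regions from 20960 to 30832 higher in MPP and from 18029 to 25572 higher in CDP, where 3 libraries make separation easier.

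At a ratio of at least 1.5, 2 granulocyte loci were higher in CDP and 1 dendritic cell locus in MPP. With 50 kb on each side, 3 progenitor, 2 granulocyte and 17 dendritic cell loci were higher in CDP and 5 dendritic cell loci in MPP. With the gene body alone or with equal totals, 2 progenitor loci were higher in CDP. With a library left out, progenitor loci higher in CDP ranged from 1 to 3, granulocyte loci higher in CDP from 4 to 7 and dendritic cell loci higher in MPP from 3 to 10. Of the 64 loci with separate libraries, log2 ratios turned with 50 kb at Gfi1b (0.34), Flt3 (-0.15), Ly6d (-1.34), H2-DMb2 (-0.12) and Ccr7 (0.50), and with the gene body alone at H2-Ab1 (-0.37), Clec9a (-0.53) and Nfil3 (0.51). Separation was lost without a turn at 9 with 50 kb, 2 with the gene body alone and 2 with equal totals. None of the 64 turned with equal totals or with any overlap in place of the centre. Leaving out a library cannot turn a locus with separate libraries, so that setting tests only its size. Among the 24 overlapping loci, the sign changed at 7 with 50 kb, 6 with the gene body, 1 with any overlap, 5 with equal totals and 3 to 8 with a library left out. The read depth is unknown, so no limit of detection can be given.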
